A study of Mus musculus with 5 samples.

Results

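Chemokines of the CXC family are small secreted proteins that steer leukocytes by binding G protein-coupled receptors. The 9 genes described here are Cxcl1, Cxcl2, Cxcl3 and Ppbp, whose proteins carry a glutamate-leucine-arginine (ELR) motif just before the CXC cysteines, and Pf4, Cxcl12, Cxcl13, Cxcl14 and Cxcl16, whose proteins lack it. They were taken by gene symbol: every probe set that the platform annotation assigns to one of them was kept. That gave 16 probe sets of 45037 on the array, 6 for the ELR genes and 10 for the others, and 0 of the 16 carried more than 1 symbol. All 16 were among the 41053 probe sets tested, which are those above a floor on at least 1 array.

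RNA was measured on Affymetrix mouse arrays in CD11b+ cells sorted from Matrigel, a gelled matrix, placed under the skin of adult Balb/c mice aged 7 to 12 weeks. Tumoricidal macrophages (3 arrays) came from plugs that held MOPC315, a mouse myeloma line, and control macrophages (2 arrays) from plugs that held an antigen-loss variant of that line. All hosts were SCID, a mutation that leaves mice nearly without their own B and T cells, and all carried a transgenic T-cell receptor (TCR), called idiotype-specific in the labels. The idiotype is a part of the antibody that the myeloma makes. Plugs were taken on day 8. The labels call the arrays biological replicates but do not say whether animals were pooled, so p-values measure the spread between these 5 samples. The CD11b gate also admits neutrophils and some lymphoid cells.

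ELR chemokines bind CXCR2 on neutrophils and draw them into inflamed tissue, and macrophages make Cxcl1, Cxcl2 and Cxcl3 soon after an NF-kappaB signal. Ppbp, the precursor of neutrophil-activating peptide, and Pf4, platelet factor 4, are best known from platelet granules. Cxcl12 and Cxcl13 are called homeostatic because stromal cells make them without inflammation, Cxcl12 to hold CXCR4-bearing cells and Cxcl13 to bring CXCR5-bearing B cells into follicles. Cxcl14 is made in epithelia, and Cxcl16 is a membrane-bound chemokine that is also a scavenger receptor and binds CXCR6.

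Ppbp, Pf4, Cxcl3, Cxcl15, Cxcl1 and Cxcl2 follow each other in that order among the protein-coding genes of mouse chromosome 5 in the RefSeq annotation (GRCm38.p6). Promoter sequences were found in the RefSeq-derived table (GRCm38.p6) for 8 of the 9 genes, that is, for all but Cxcl16. The 100 bases before the annotated start of 5 of these neighbours are given because 3 of them share a motif, in capitals. The array profiles of these 3 differ in size or in the order of arrays. Sequences run 5′ to 3′ on the gene's strand.
Cxcl1 (chr5:90891145-90891244, plus strand): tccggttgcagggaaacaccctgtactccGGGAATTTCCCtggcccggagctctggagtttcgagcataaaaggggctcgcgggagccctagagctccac
Cxcl2 (chr5:90903799-90903898, plus strand): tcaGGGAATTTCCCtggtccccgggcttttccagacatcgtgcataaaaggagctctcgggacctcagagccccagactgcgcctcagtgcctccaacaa
Cxcl3 (chr5:90786001-90786100, plus strand): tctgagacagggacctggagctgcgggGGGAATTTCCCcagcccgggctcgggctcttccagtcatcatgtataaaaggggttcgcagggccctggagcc
Ppbp (chr5:90768418-90768517, plus strand): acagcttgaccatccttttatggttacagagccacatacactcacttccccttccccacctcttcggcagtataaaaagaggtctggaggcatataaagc
Pf4 (chr5:90772335-90772434, plus strand): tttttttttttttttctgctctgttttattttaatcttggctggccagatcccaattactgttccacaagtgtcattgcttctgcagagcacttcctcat
The capitals mark GGGAATTTCCC, the longest run of letters that the 250 bases before the starts of Cxcl1, Cxcl2 and Cxcl3 share, and an NF-kappaB-type motif. On a search of both strands, each of these genes held 1 match, beginning 71, 97 and 73 bases before the start, and the other 5 members with a sequence held 0. Of 32851 promoters of that length, 0.0426% held it. As the run was taken from these promoters, its presence in them is no finding. A match describes the letters in the window and not a used site.

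Values are signals scaled to the same median on each array, and signals under 4.79 were treated as being at that floor. Signals of different probe sets do not compare amounts of RNA, so only differences between arrays are read. Where a probe set is called dim, its signal was low, which does not measure an amount of RNA. Sums over a marker list are led by its brightest probe sets and are compared only between arrays. Array medians differed by up to 1.47 times before scaling. By their spike-in controls, tumoricidal replicates 1 and 2 went with control replicate 1 (batch A), and tumoricidal replicate 3 went with control replicate 2 (batch B). Differences are also given within each batch, and batch B has 1 array per group. The macrophage markers measured were above the floor on all arrays. Csf1r, the receptor for the macrophage growth factor, had 6685, 5913 and 6808 in tumoricidal replicates 1, 2 and 3, against 5186 and 5290.3 in control replicates 1 and 2. Of 10 macrophage markers measured, 3 were fully higher and 0 fully lower in the tumoricidal arrays, beside 17% and 6.51% of all genes, and 0 passed the test. Their summed signals were 36326, 26478 and 39619 in tumoricidal replicates 1, 2 and 3 and 23689 and 30896 in control replicates 1 and 2. T-cell markers were highest in tumoricidal replicate 2, where the sum over 7 of them was 1104, with 147 and 107 in the other tumoricidal arrays and 109 and 54.9 in control replicates 1 and 2.

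Over all members, 1 of the 16 probe sets fell in tumoricidal macrophages and 0 rose at limma's adjusted p under 0.05. Over all 41053 probe sets, limma called 0.0171% lower and 0.0341% higher. At an unadjusted p under 0.05, 3 member probe sets were lower and 1 higher, where the background was 3.07% lower and 4.92% higher (1259 and 2021 probe sets). Under the deposited scaling the background was 2500 lower and 1172 higher. The groups were fully apart at 6 of the 16, meaning that every tumoricidal array lay on the same side of every control array. The tumoricidal arrays lay below both controls at 5 of these, against 7.6% of all probe sets, and above them at 1, against 13.3%. Counted by gene, with the probe set of highest mean standing for each, 3 of 9 were fully lower, against 6.51% of 17074 genes, and 1 of 9 fully higher, against 17% of genes. Probe sets of 1 gene share their RNA and are not independent counts. The median log2 difference (tumoricidal minus control) over the 9 genes was -0.50, beside 0.13 over all named genes.

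**Figure D1:**
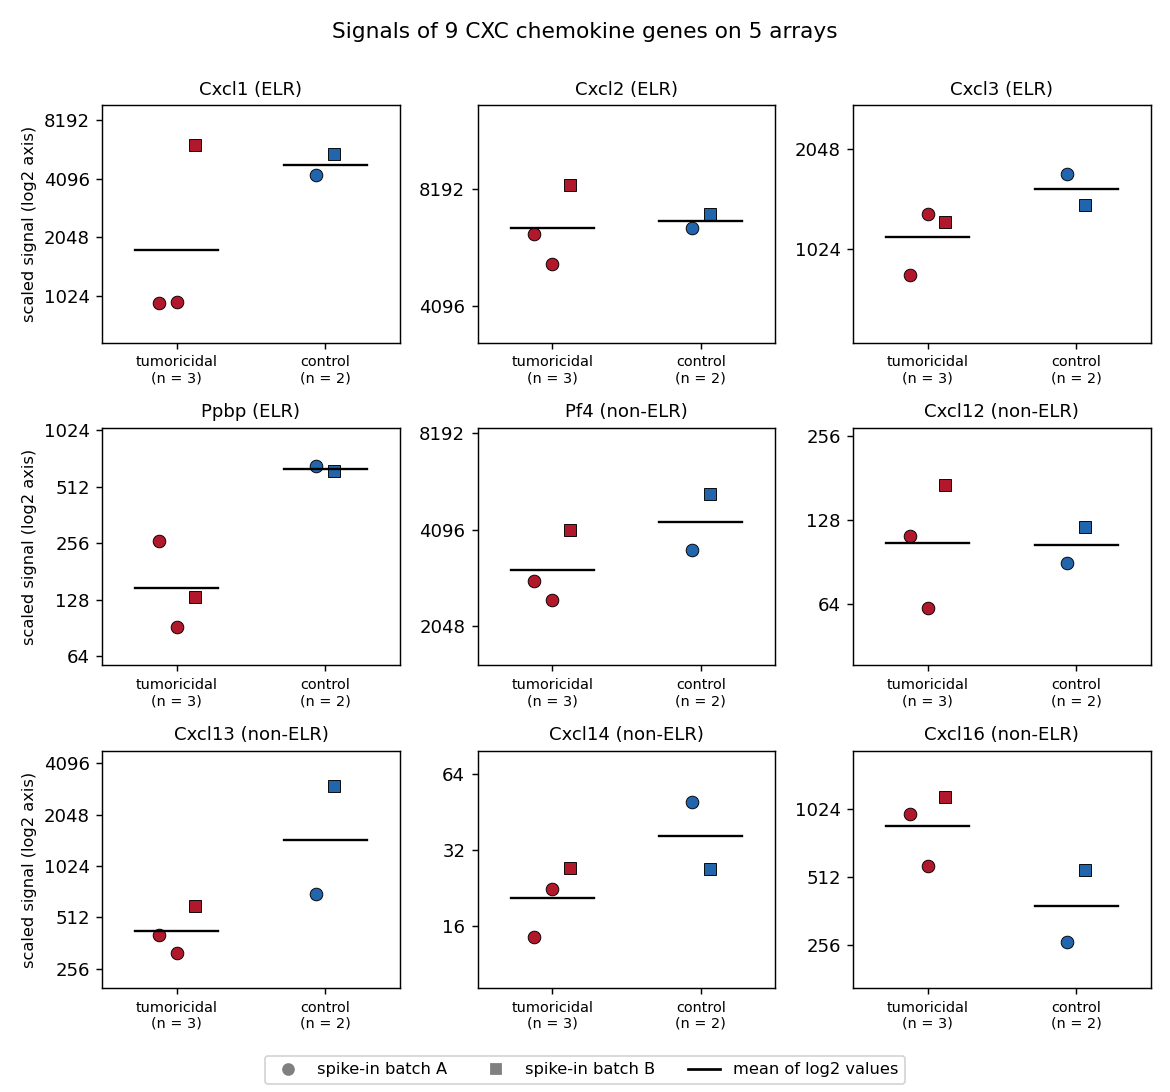
Scaled signal (log2 axis) of the 9 genes on each array, with 3 tumoricidal arrays on the left and 2 control arrays on the right of each panel; lines are means of log2 values, circles are spike-in batch A and squares batch B. Ppbp, Cxcl3 and Cxcl13 have all tumoricidal points below both control points, Cxcl16 has all of them above, and 1 Cxcl1 tumoricidal point, at 6099, lies with the controls.

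Among the ELR genes, Ppbp had the largest difference. Its signals were 263, 91.2 and 133 in tumoricidal replicates 1, 2 and 3, against 658 and 622 in control replicates 1 and 2. Every tumoricidal array was below every control array. The means were 162 ± 89.8 (SD, n = 3) in tumoricidal and 639.8 ± 25.3 (SD, n = 2) in control macrophages. The log2 difference was -2.12 (SE 0.47, 95% interval -3.29 to -0.94), which did not pass limma's adjustment over all probe sets (adjusted p = 0.317). Batch A alone gave -2.09 and batch B alone -2.23. With single arrays left out it lay between -2.54 and -1.77. In a bulk sample, fewer cells that make an RNA and less of it per cell cannot be told apart.

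Cxcl1, a chief neutrophil attractant of the mouse also called KC, was split within the tumoricidal group. Its probe set 1457644_s_at had 943, 954 and 6099 in tumoricidal replicates 1, 2 and 3, against 4264 and 5502 in control replicates 1 and 2. Tumoricidal replicates 1 and 2 were far below the controls, and tumoricidal replicate 3 was above both, at 6.43 times the mean of the other tumoricidal arrays. The means were 2665 ± 2974 (SD, n = 3) in tumoricidal and 4883 ± 876 (SD, n = 2) in control macrophages. The log2 difference was -1.46 (limma adjusted p = 0.788; SE 0.87). The other probe sets showed the same split. Probe set 1419209_at had 698, 635 and 4502 in the tumoricidal arrays, against 2870.2 and 4479 in the control arrays, for a log2 difference of -1.51. Probe set 1441855_x_at had 333, 269.8 and 1612 in the tumoricidal arrays, against 1135 and 1471 in the control arrays, a log2 difference of -1.30. In the manufacturer's naming, the endings _s_at and _x_at mark probes that also match other transcripts. Within batch A the log2 differences of 1457644_s_at, 1419209_at and 1441855_x_at were -2.17, -2.11 and -1.92, and within batch B they were 0.15, 0.01 and 0.13. Without tumoricidal replicate 3 the difference of 1457644_s_at was -2.35, in place of -1.46. The part of the batch in this split was not tested.

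Cxcl2, also known as MIP-2, had signals of 6254, 5259 and 8396 in tumoricidal replicates 1, 2 and 3, against 6509 and 7069 in control replicates 1 and 2. The groups overlapped, and tumoricidal replicate 3 was the highest array. The log2 difference was -0.06 with a 95% interval of -0.77 to 0.66 (limma adjusted p = 0.965). Its sign turned with the batch as a block (0.00195).

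Cxcl3, also an NF-kappaB target and CXCR2 ligand, had 858, 1301 and 1235 in tumoricidal replicates 1, 2 and 3, against 1723 and 1388 in control replicates 1 and 2. Every tumoricidal array was lower than both controls. The log2 difference was -0.47 (SE 0.29, limma adjusted p = 0.794), with -0.71 within batch A and -0.17 within batch B. Of the genes that share the capitalised motif, Cxcl3 was lower in each tumoricidal array than in both controls. For both Cxcl1 and Cxcl2, tumoricidal replicates 1 and 2 were below both controls and tumoricidal replicate 3 was above both. The Cxcl1 and Cxcl2 profiles had a Pearson's r of 0.82 and differed in size. Tumoricidal replicate 3 was at 6.43 times the mean of the other tumoricidal arrays for Cxcl1 and 1.46 times for Cxcl2. These differences between the profiles were not tested.

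**Figure D2:**
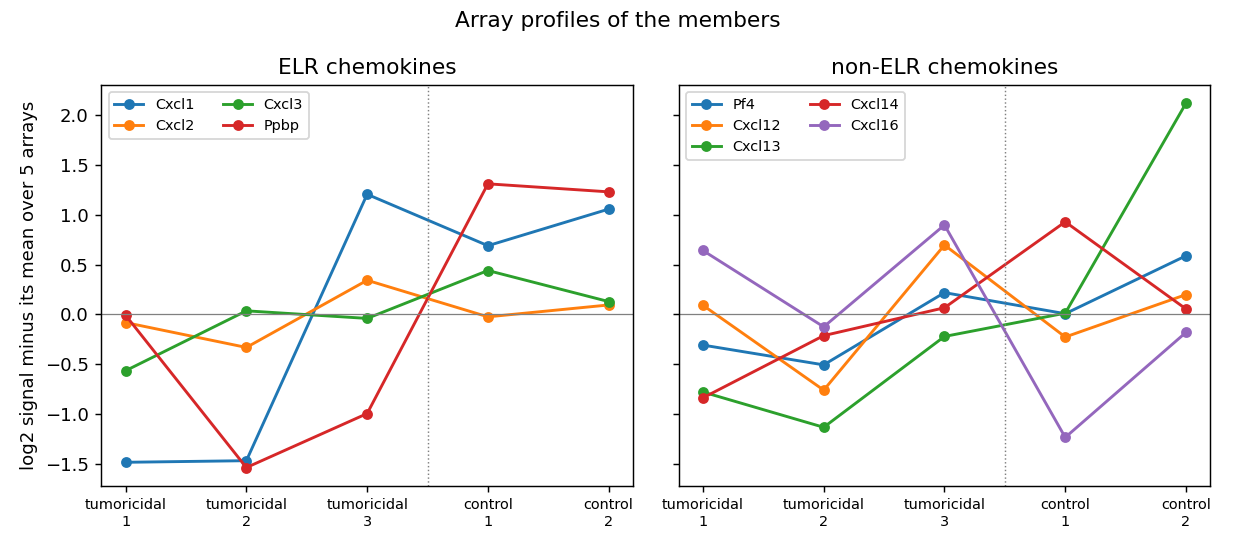
Log2 signal minus its mean over the 5 arrays for the 4 ELR genes (left) and the 5 non-ELR genes (right), by array; lines only join the points of a gene, and the dotted line separates 3 tumoricidal from 2 control arrays. Cxcl1 leaves the other tumoricidal arrays at replicate 3, Ppbp is low in all tumoricidal arrays, and Cxcl13 is highest in control replicate 2.

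Pf4, the non-ELR platelet chemokine, had 2845, 2479 and 4099 in tumoricidal replicates 1, 2 and 3, against 3539.6 and 5299 in control replicates 1 and 2. The groups overlapped and the log2 difference was -0.50 (SE 0.34, 95% interval -1.33 to 0.34, limma adjusted p = 0.802). Ppbp, its neighbour and the other platelet chemokine, had a log2 difference of -2.12; the gap between these was not tested.

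Markers of platelets were dim. Of 14 on the list, 12 had a named probe set. Of all genes, 17% were fully higher and 6.51% fully lower, while of these 12 markers 0 were fully apart and 0 passed the test. Their summed signal was 213, 226 and 283 in tumoricidal replicates 1, 2 and 3 and 172 and 254 in control replicates 1 and 2. Itga2b, the platelet integrin, had 24.9, 31.8 and 40.1 in the tumoricidal arrays, against 31.8 and 49.2 in the control arrays. Gp9, a subunit of the von Willebrand factor receptor, had 21.1, 12.2 and 13.6 in the tumoricidal arrays, against 4.06 and 16.2 in the control arrays. Gp5, which belongs to the same receptor, had 6.92, 13.2 and 5.38 in the tumoricidal arrays, against 10.7 and 17.2 in the control arrays. The groups overlapped for all 3 of these defining markers. All 3 were dim, and Gp9 was under the floor in control replicate 1. The part of platelets in the Ppbp signal was not tested.

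Plasma-cell markers were also measured, since the injected myeloma is a tumour of plasma cells. Of 9 plasma-cell markers, 6 were fully lower in tumoricidal arrays, against 6.51% of genes, and 2 fully higher, against 17%. Of the 9, 0 passed the test, beside 0.0117% of genes called lower and 0.0527% called higher, and the median log2 difference was -1.23. Pou2af1, a B-lineage coactivator, had 50.5, 45.3 and 69.5 in the tumoricidal arrays, against 483 and 544 in the control arrays. Jchain, which joins secreted IgA, had 387, 78.7 and 561 in the tumoricidal arrays, against 1623 and 1985 in the control arrays. Tnfrsf17, a plasma-cell survival receptor, was under the floor in all tumoricidal arrays and at 24.2 and 37.2 in the control arrays. All 3 defining markers were lower in every tumoricidal array than in either control. The list summed to 4113, 3600.3 and 4935 in tumoricidal replicates 1, 2 and 3 and to 5698 and 6346 in control replicates 1 and 2. Xbp1, which many secretory and myeloid cells express, made up 3132, 3098 and 3297 of the tumoricidal sums and 2456 and 2721 of the control sums. The part of myeloma RNA in the Ppbp signal was not tested.

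**Figure D3:**
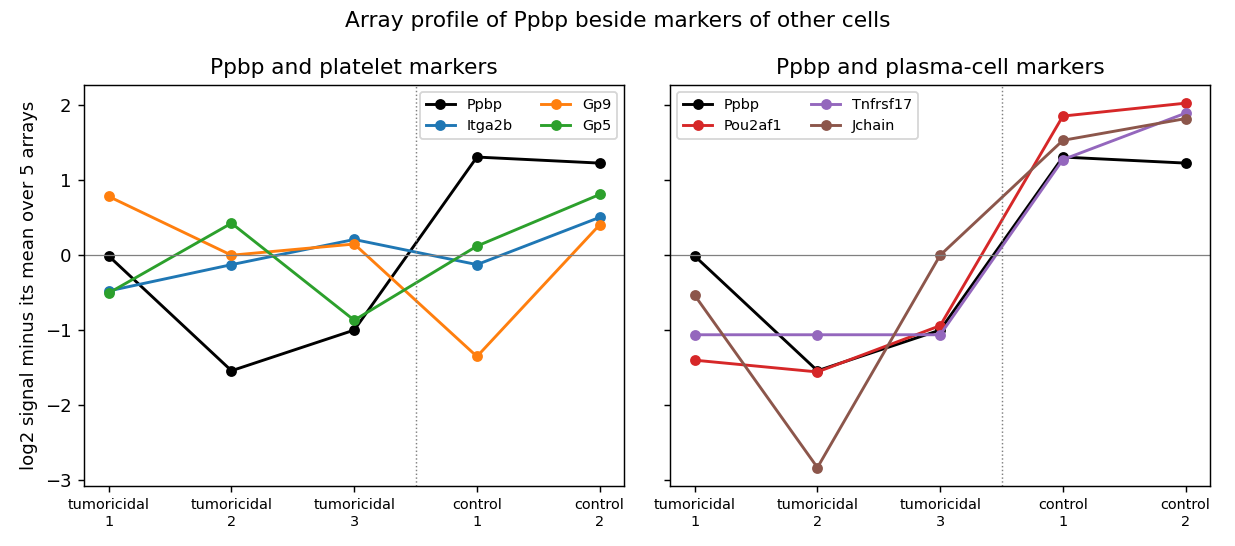
Log2 signal minus its mean over the 5 arrays for Ppbp (black) beside the platelet markers Itga2b, Gp9 and Gp5 (left) and the plasma-cell markers Pou2af1, Tnfrsf17 and Jchain (right), 3 tumoricidal arrays first and then 2 control arrays; lines only join the points of a gene. Ppbp and these 3 plasma-cell markers are higher on both control arrays than on any tumoricidal array. The 3 platelet markers are dim and overlap between groups. Of all 9 plasma-cell markers, 6 were fully lower and 2 fully higher in tumoricidal arrays.

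Cxcl14, the epithelial chemokine, was the only member with a probe set past the threshold. Probe set 1418457_at had 1.12, 2.31 and 1.75 in tumoricidal replicates 1, 2 and 3, against 38.1 and 33.8 in control replicates 1 and 2. All tumoricidal values were under the floor and both control values well above it. The signal was at least 7.49-fold lower in tumoricidal macrophages, taking the floor for those 3 arrays (limma adjusted p = 0.0481). Sharing the floor value gave those 3 arrays a log2 SD of 0 by construction. The measured within-group spread of this probe set therefore came from the 2 control arrays alone. The call held with quantile normalization (limma adjusted p = 0.0405) and with no filter (0.0264), and was lost with any single array left out (0.188 to 0.433) and with the batch as a block (0.145). It was also lost with floors at the 10th (0.126) and 40th (0.0539) percentiles, no floor (0.0994), the deposited scaling (0.0547), a variance trend (0.0638) and the replicate number as a block (0.908). The other Cxcl14 probe set (1418456_a_at), which stands for the gene by its mean, had 14.5, 22.4 and 27.2 in the tumoricidal arrays, against 49.5 and 27 in the control arrays. Here tumoricidal replicate 3 and control replicate 2 were level. Its log2 difference was -0.82 (SE 0.41, limma adjusted p = 0.744), with -1.46 within batch A and 0.01 within batch B. The call for this gene rests on 1 of 2 probe sets, and both were dim. Keratinocytes, an epithelial source of this chemokine, were represented by 8 markers with summed signals of 109, 77.3 and 82.6 in tumoricidal replicates 1, 2 and 3 and 69.6 and 76.8 in control replicates 1 and 2. Of the 7 tested, 1 was fully higher, 1 fully lower (beside 17% and 6.51% of genes) and 0 passed the test, and Krt15 was under the floor on every array.

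Cxcl13, the B-cell attractant, had signals of 404, 316 and 595 in tumoricidal replicates 1, 2 and 3, against 700.1 and 3023 in control replicates 1 and 2 on probe set 1417851_at. The groups were apart, but control replicate 2 stood at 4.32 times control replicate 1. On the log2 scale the difference was -1.78 (SE 0.66, limma adjusted p = 0.585). Probe set 1448859_at had 202, 107 and 274 in the tumoricidal arrays, against 290.1 and 1624 in the control arrays, with a log2 difference of -1.92 and the same order of controls. For 1417851_at batch A alone gave a difference of -0.97 and batch B alone one of -2.34. Without control replicate 2 it was -0.72, and without control replicate 1 it was -2.83.

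Cxcl16, the membrane-bound ligand of CXCR6, was the only member whose tumoricidal arrays all exceeded both controls. Probe set 1418718_at had 970.5, 570.2 and 1159 in tumoricidal replicates 1, 2 and 3, against 264 and 549 in control replicates 1 and 2. The lowest tumoricidal array was just above the higher control. On the log2 scale the groups differed by 1.18 (SE 0.46, 95% interval 0.04 to 2.32), which did not pass over all probe sets (limma adjusted p = 0.607). Probe set 1449195_s_at had 576, 467 and 872 in the tumoricidal arrays, against 256 and 468 in the control arrays. There the groups overlapped, with a log2 difference of 0.83. Within batches A and B the differences were 1.49 and 1.08 for 1418718_at and 1.02 and 0.90 for 1449195_s_at. Without control replicate 1, the lowest array, they were 0.65 for 1418718_at and 0.40 for 1449195_s_at.

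Cxcl12, the CXCR4 ligand, did not have the groups apart on any of its 3 probe sets. Probe set 1448823_at had 112, 61.9 and 170.1 in tumoricidal replicates 1, 2 and 3, against 89.6 and 120.4 in control replicates 1 and 2. The log2 difference was 0.02 (95% interval -1.13 to 1.18, limma adjusted p = 0.991), a sign that turned with the deposited scaling (-0.21) and with quantile normalization (-0.12). The other Cxcl12 probe sets were near the floor. Probe set 1417574_at had 18.6, 0.963 and 4.32 in the tumoricidal arrays, against 12.7 and 11.3 in the control arrays. Probe set 1439084_at had 1.83, 1.93 and 4.32 in the tumoricidal arrays, against 18.6 and 2.8 in the control arrays. No direction could be read from either.

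Markers of fibroblasts, a stromal source of Cxcl12, had a median log2 difference of -0.05 over 12 genes, of which 2 were fully higher, beside 17% of all genes, and 0 passed the test. Their summed signal was 3974, 2034 and 5553 in tumoricidal replicates 1, 2 and 3 and 4049.9 and 2756 in control replicates 1 and 2. Both Cxcl12 and that sum were lowest in tumoricidal replicate 2 and highest in tumoricidal replicate 3. Of all named genes, 30.6% were highest of all 5 arrays in tumoricidal replicate 3. Between the controls the order was opposite. Cxcl12 was lower in control replicate 1 (89.6) than in control replicate 2 (120.4), while the sum was higher in control replicate 1. The part of fibroblasts in the Cxcl12 signal was not tested. Endothelial cells, another source, were represented by 8 dim markers, of which 1 was fully higher, 1 fully lower (beside 17% and 6.51% of genes) and 0 passed the test. Their summed signals were 209, 172 and 171 in tumoricidal replicates 1, 2 and 3 and 152 and 183 in control replicates 1 and 2.

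**Figure D4:**
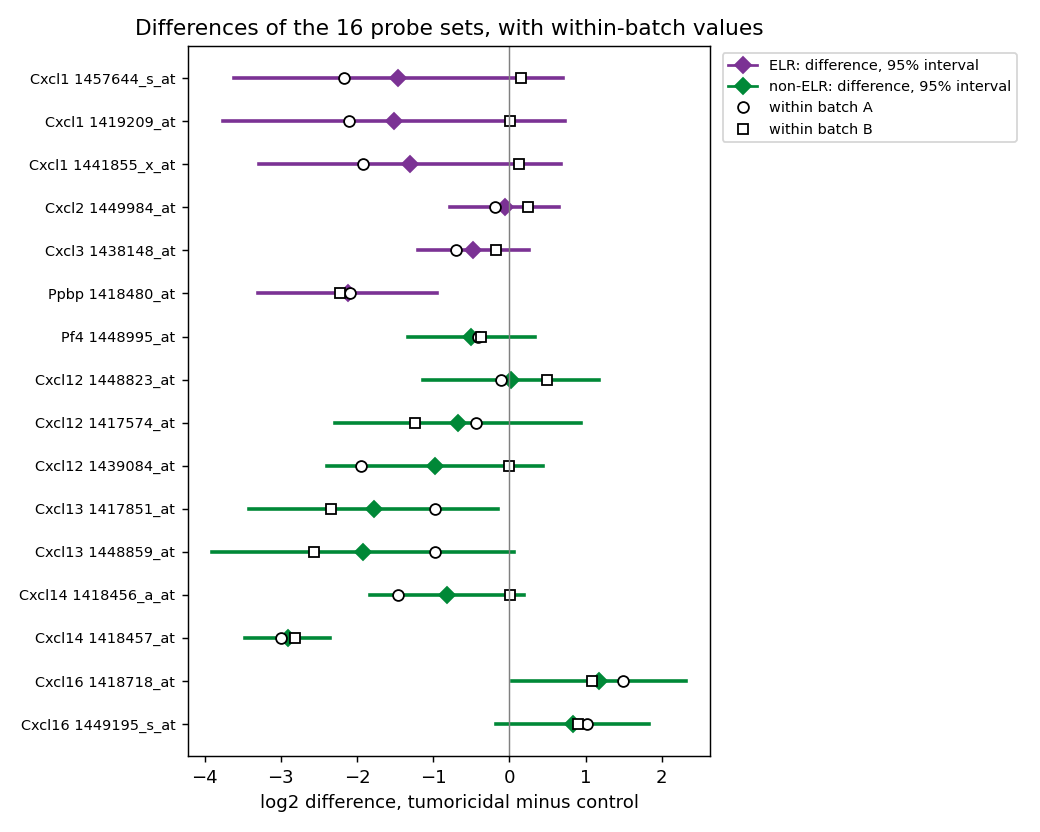
Log2 difference (tumoricidal minus control) of the 16 probe sets with limma's 95% interval (purple for ELR, green for non-ELR genes), and the differences within spike-in batch A (circles) and batch B (squares). All 6 ELR values are at or below -0.06, both Cxcl16 values are above 0, and the 3 Cxcl1 probe sets reach 0 or more within batch B.

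Set against each other, all 4 ELR genes had log2 differences below 0, with a median of -0.97. The 5 non-ELR genes had 3 below and 2 above, with a median of -0.50. Of all named genes, 37% were below 0 and 63% above with the main scaling. With the deposited scaling and with quantile normalization Cxcl12 also lay below 0, for 4 non-ELR genes below and 1 above. The background moved down as well. The median over all probe sets was 0.09 with the main scaling, -0.11 with the deposited scaling and 0.0016 with quantile normalization. The 37% therefore does not serve as background for those scalings. Within batch B 2 of the 4 ELR genes were above 0, Cxcl1 at 0.15 and Cxcl2 at 0.25. Within the ELR genes the differences were -2.12 for Ppbp, -1.46 for Cxcl1, -0.47 for Cxcl3 and -0.06 for Cxcl2. The mean log2 signal of the ELR genes was 10.07, 9.78 and 10.73 in tumoricidal replicates 1, 2 and 3 and 11.21 and 11.23 in control replicates 1 and 2. That of the non-ELR genes was 8.14, 7.83 and 8.71 in the tumoricidal and 8.28 and 8.94 in the control arrays. The ELR mean less the non-ELR mean was 1.92, 1.94 and 2.02 in tumoricidal replicates 1, 2 and 3 and 2.93 and 2.29 in control replicates 1 and 2. All 3 tumoricidal arrays were lower than both controls by this measure, with a difference of -0.65 between the group means, beside a replicate SD of 0.26. As the genes were chosen with results of these data known, no p is given. Batch A alone gave -0.995 and batch B alone -0.27. It was also -0.27 when each gene was the mean of all its probe sets, and with single arrays left out it lay between -0.97 and -0.33. It was not computed with single genes left out. Ppbp at -2.12 was the lowest ELR value and Cxcl16 at 1.18 the highest non-ELR value, so the gap may rest on single genes.

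Receptors were measured for 7 of 8 genes, and 0 passed the test. Of these 7, 1 was fully higher and 2 fully lower, beside 17% and 6.51% of all genes. Cxcr2, the neutrophil receptor of the ELR chemokines, had 252, 209 and 86.7 in tumoricidal replicates 1, 2 and 3, against 65.5 and 55.2 in control replicates 1 and 2. All tumoricidal arrays were higher (log2 difference 1.47, SE 0.50, limma adjusted p = 0.546). The 4 ELR members had differences below 0, with Cxcl2 at -0.06. Within batch B, Cxcl1 (0.15) and Cxcl2 (0.25) were above 0. Of 11 neutrophil markers, Cxcr2 included, 6 were fully higher and 0 fully lower, against 17% and 6.51% of genes, with a median of 0.91. S100a8, a calcium-binding protein abundant in neutrophils, had 4788, 3919 and 4627 in the tumoricidal arrays, against 1635 and 3004 in the control arrays. The marker sum was 11242, 9955 and 11407 in tumoricidal replicates 1, 2 and 3 and 4503 and 7363 in control replicates 1 and 2. Both S100a8 and the sum were higher in every tumoricidal array. S100a8 and S100a9 made up most of each sum, so the sum is no separate count. S100a9 had 4967, 4804 and 5100 in the tumoricidal arrays, against 2098 and 3309 in the control arrays. The granule genes Mpo (-0.29) and Elane (-0.35) had log2 differences below 0, and Mmp8 had 0.04. Cxcr2 was lowest of the tumoricidal arrays in replicate 3, where the sum was highest. The markers Ly6g, a defining one, and Retnlg are not analysed here. The part of neutrophils in the Cxcr2 signal was not tested.

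Cxcr4, the receptor of Cxcl12, had 486, 591 and 731 in tumoricidal replicates 1, 2 and 3, against 1060.2 and 1041 in control replicates 1 and 2. It was lower in every tumoricidal array (log2 difference -0.82, limma adjusted p = 0.526). Ackr3, which scavenges Cxcl12, had 107, 60.2 and 197 in the tumoricidal arrays, against 196 and 193 in the control arrays, with a log2 difference of -0.84 and overlapping groups. Ackr1, a decoy for many inflammatory chemokines, was dim and had a log2 difference of -0.71 with the groups apart (limma adjusted p = 0.729). Cxcr5, which binds Cxcl13, reached at most 33.7 on any array and differed by 0.45. Cxcr6, which binds Cxcl16, reached at most 31 and differed by 0.17, or by -0.06 with the deposited scaling. Both maxima were in tumoricidal replicate 2, the array with the highest T-cell markers, whose part in these signals was not tested. Cxcr3, the receptor of the interferon-inducible CXC ligands, differed by -0.13.

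Of 8 proteases that process chemokines or are released from neutrophil granules, 0 passed the test. Mmp12, the macrophage elastase, which can cut CXC chemokines at the ELR motif, had 1075, 782 and 1912 in tumoricidal replicates 1, 2 and 3, against 163 and 469 in control replicates 1 and 2. It was higher in every tumoricidal array (log2 difference 2.08, SE 0.59, limma adjusted p = 0.433). The other 7 had overlapping groups. Of all genes, 17% were fully higher and 6.51% fully lower. Adam17, which can shed Cxcl16 from the membrane, differed by 0.36. Adam10, the main shedding enzyme of Cxcl16, differed by 0.02. Dpp4, which trims Cxcl12, differed by 0.15, and Mmp9, a gelatinase that cuts several CXC chemokines, by -0.33. The signs of Adam10 (-0.21), Dpp4 (-0.08) and Mmp8 (-0.19) turned under the deposited scaling.

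Of 21 measured genes that induce, restrain or accompany the ELR chemokines in NF-kappaB responses, 0 passed the test. Their median log2 difference was 0.21, or -0.02 with the deposited scaling. The cytokine Il1b, which induces ELR chemokines, had 5623, 5306 and 8034 in tumoricidal replicates 1, 2 and 3, against 4677 and 5350.4 in control replicates 1 and 2. The groups overlapped. Tnf, another inducer, had 443, 276 and 2155 in the tumoricidal arrays, against 442 and 959 in the control arrays. Il1a, which acts on the same receptor as Il1b, had 129.6, 186 and 1862 in the tumoricidal arrays, against 444 and 976 in the control arrays. Il6, induced beside Cxcl1, had 545, 592 and 2299.8 in the tumoricidal arrays, against 1454 and 926 in the control arrays. Like Cxcl1, these last cytokines were several times higher in tumoricidal replicate 3 than in the other tumoricidal arrays. Over the list, 16 of 21 genes were highest of all 5 arrays in tumoricidal replicate 3, beside 30.6% of all named genes. The same held for 7 of 10 macrophage, 8 of 12 fibroblast, 7 of 12 platelet and 6 of 11 neutrophil markers. It held for fewer in other lists: 1 of 8 endothelial, 1 of 7 keratinocyte, 2 of 9 plasma-cell and 0 of 7 T-cell markers. Nfkbiz, a coactivator of secondary NF-kappaB targets, had 2376, 2461 and 4949 in the tumoricidal arrays, against 3717 and 3909 in the control arrays. Zfp36, which destabilises Cxcl1 and Tnf mRNA, had 3474, 2669 and 5289.7 in the tumoricidal arrays, against 3224 and 3773 in the control arrays. Both were also highest in tumoricidal replicate 3. Il17a, a T-cell cytokine that stabilises Cxcl1 mRNA, stayed between 10.8 and 19.1 on the 5 arrays. Icam1, which neutrophils grip on their way out of vessels, was higher in every tumoricidal array, with a log2 difference of 1.06 (limma adjusted p = 0.48). The interleukin-1 antagonist Il1rn was likewise higher in every one, with 0.76 (limma adjusted p = 0.743). Of the 21 genes, these 2 were fully higher and 1, Il17ra, fully lower, beside 17% and 6.51% of all genes. The part of batch or of 1 array in these values was not tested.

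Among the other CXC ligands, 1 of the 5 tested rose and 0 fell, beside 0.0527% of genes called higher and 0.0117% called lower. The ELR gene Cxcl5 had 58.3, 40.04 and 134 in tumoricidal replicates 1, 2 and 3, against 77.6 and 90.2 in control replicates 1 and 2. The groups overlapped, with a log2 difference of -0.30, and tumoricidal replicate 3 was again the highest array. Cxcl15, the ELR gene between Cxcl3 and Cxcl1, was under the floor on all arrays. The interferon-inducible CXCR3 ligand Cxcl9 rose by a log2 difference of 6.02 (limma adjusted p = 0.027), a call lost when batch entered the fit as a block (0.145). It was also lost with any single array left out, the 10th percentile floor, no floor and the replicate number as a block, where limma called 0 probe sets higher. Cxcl11, of the same group, had 3.29 (limma adjusted p = 0.147) and Cxcl10 had 1.96 (limma adjusted p = 0.175), with all tumoricidal arrays higher. Of the 5 tested, 3 were fully higher and 0 fully lower, beside 17% and 6.51% of all genes.

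**Figure D5:**
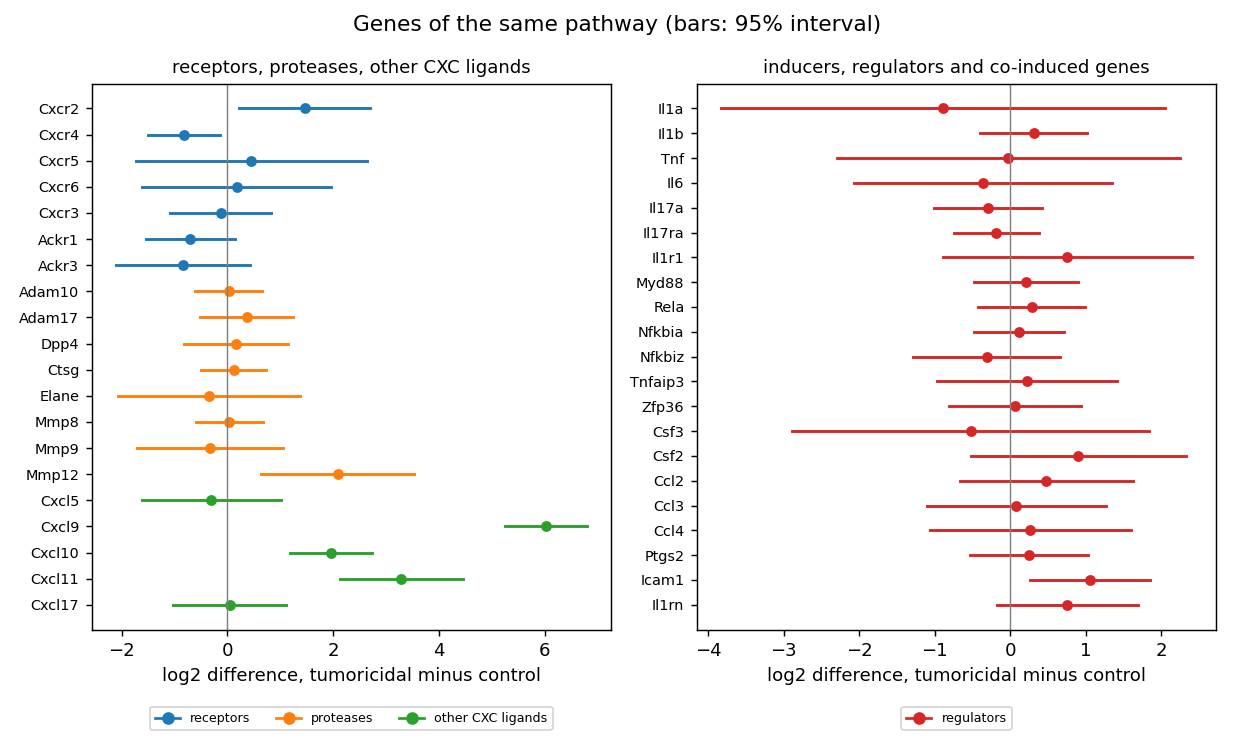
Log2 difference (tumoricidal minus control) with limma's 95% interval for receptors, proteases and other CXC ligands (left) and for inducers and regulators of ELR chemokines (right). Cxcl9 alone passes the adjusted threshold; Cxcr2 and Mmp12 lie above 0 and Cxcr4 below, while all regulators but Icam1 have intervals that include 0.

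The genes most like a member over the 5 arrays were found by the root-mean-square difference of centred log2 signals among 12001 other genes above the floor on all arrays. For Cxcl2, the ELR gene with the highest mean signal, these were B430306N03Rik, Rrnad1, Ifitm5, Alx4 and Ocrl, at 0.04 to 0.06 log2 units and Pearson's r of 0.965 to 0.992. For Pf4, the non-ELR gene with the highest mean signal, they were Qsox2, Tbc1d12, Snx16, Zfp383 and Ttc23, at 0.04 to 0.08 (r 0.977 to 0.997). The same measure was taken for 3 more members after their values were seen. The nearest to Ppbp were Cntn3, Fcrl1, Nrep, Eaf2 and Smad6, at 0.20 to 0.33 (r 0.966 to 0.999). Among these, picked for likeness to Ppbp itself, Eaf2 and Fcrl1 are known from B-lineage cells. The part of such cells in the Ppbp signal was not tested. Nearest to Cxcl13 were Cd209b, Vsig4, Cd209g, Ltc4s and Tcim, at 0.10 to 0.30 (r 0.966 to 0.998), of which Vsig4, a complement receptor, and Cd209b, a lectin, are known from tissue-resident macrophages. Vsig4 had 60.5, 37.2 and 72.1 in tumoricidal replicates 1, 2 and 3, against 91.5 and 448 in control replicates 1 and 2, the same rank order of arrays as Cxcl13. For Cxcl1 the nearest were Rhbdd2, Ccn5, Gp6, Cpe and Rcan1, at 0.25 to 0.31 (r 0.970 to 0.997). With 5 arrays of 2 groups such values describe these samples only.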

How the data were processed

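The deposited values are 1 linear, non-negative signal intensity per probe set and array. Per the labels, biotinylated cRNA was made from 6 ug total RNA; the authors' software and scaling were not given in the sources used here, so depth and per-probe precision are unknown and the 5 arrays limit precision. Genes came from the platform annotation: 34945 probe sets had 1 symbol, 932 several and 9160 none, and 0 symbols changed through Entrez IDs. After removal of 64 control probe sets, intensities were scaled to the median of the array medians (these differed by more than 1.1 times), raised to the pooled 25th percentile (4.79) and taken as log2. The 3984 probe sets that never exceeded this floor were left untested. Tumoricidal and control arrays were compared with limma 3.58.1 (lmFit, eBayes) in R 4.3.3, two-sided, with Benjamini-Hochberg adjustment over 41053 probe sets. The fit was tested on simulated data. Figures used Python 3.11.15 and matplotlib 3.10.9.

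Named were all members and their probe sets, the genes of pathway and marker lists, and the 5 genes nearest in profile to the ELR and the non-ELR member of highest mean signal; genes near 3 other members and the motif were chosen after values or sequences were seen. Members and lists were chosen with earlier results of these data known. A gene stood by its single-symbol probe set of highest mean. Arrays were assigned to batches by their BioC spike-in signals, 611 to 685 in batch A and 167 and 175 in batch B. Alternatives were other scalings, floors, filters, a variance trend, blocks and single arrays left out. Between-array correlations of log2 signals were 0.94 to 0.96.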

Additional observations from a re-analysis of the deposited data

How the results depend on the processing

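The lower Cxcl14 probe set 1418457_at kept its direction under every alternative that tested it, and its call (main adjusted p = 0.0481) with quantile normalization and with no filter. The number of members called lower by limma was 0 in place of 1 with the deposited scaling (adjusted p of that probe set 0.0547), floors at the 10th (0.126) and 40th (0.0539) percentiles, no floor with log2(signal + 1) (0.0994), a variance trend (0.0638), the batch as a block (0.145) and the replicate block (0.908), and was 0 in each setting that left out 1 array. It was also 0 when probe sets under the median were dropped, since this one is among them. No member was called higher under any of these settings. Its log2 difference was -4.39, -1.70 and -3.78 with the 10th and 40th percentile floors and with no floor.

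Over all probe sets, 14 were called higher and 7 lower. Both counts were 0 with the 10th percentile floor, no floor, the batch block, the replicate block and each array left out. At an unadjusted p under 0.05 limma gave 1808 higher and 1201 lower with the 10th percentile floor, 1845 and 1250 with no floor, 2631 and 1486 with the batch block, and 1103 and 933 with the replicate block. Called higher were 41 with the 40th percentile floor, 194 above the median only and 58 with a trend. Called lower were 28 above the median only and 41 with no filter. The causes were not tested.

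The difference between ELR and non-ELR means (-0.65) was -0.995 within batch A, -0.27 within batch B, -0.27 with all probe sets of a gene averaged, and -0.97 to -0.33 with 1 array left out; those extremes came without control replicate 2 and without control replicate 1. Signs turned for Cxcl12 1448823_at (main 0.02), to -0.21 with the deposited scaling, -0.12 with quantile normalization and -0.32 with the replicate block, and it lay between -0.32 and 0.41 with 1 array left out. They turned for Cxcl12 1417574_at (main -0.67), to 0.13 with the 40th percentile floor, and for Cxcl2 (main -0.06), to 0.00195 with the batch block and to between -0.24 and 0.10 with 1 array left out.

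The labels do not say that replicate numbers pair the arrays. Deviations of same-numbered arrays from their group means had r of 0.02 for number 1 and -0.24 for number 2. The deviations of the 2 control arrays are equal and opposite by construction, and number 2 spans both spike-in batches. These values therefore cannot decide whether arrays were paired. The median log2 difference of all probe sets was 0.09, -0.11 with the deposited scaling and 0.0016 with quantile normalization. With 5 arrays, and no probe-level data or detection calls, dim probe sets are limited by the chosen floor.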
